A study of Mus musculus with 4 samples.

Results

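The Txnip by ob/ob contrast compares the expression difference that went with loss of Txnip in leptin-deficient ob/ob muscle with the same difference in muscle without the ob/ob mutation. It was computed over all 4 arrays of the series as (ob/ob TBP-2-/- minus ob/ob) minus (TBP-2-/- minus WT), on log2 signals scaled to the 75th percentile of each array. A gene entered when its probe was well above background on all 4 arrays, which left 14908 of 27597 genes and named transcripts. A contrast of 1 on the log2 scale means that the ratio of signals without Txnip to with Txnip was 2 times as high on the ob/ob background as on the other. The WT and TBP-2-/- pair is called lean below, as the pair without the ob/ob mutation; no body weight was used here.

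Skeletal muscle came from mice aged 10 weeks that were fed freely, and 1 single-colour Agilent mouse array was run for each of 4 genotypes. WT muscle carried neither mutation, TBP-2-/- muscle lacked Txnip (TBP-2 is the labels' name for thioredoxin-interacting protein), ob/ob muscle was from leptin-deficient mice, and ob/ob TBP-2-/- muscle carried both changes. The labels do not give the muscle, the sex, the strain, the deleted part of Txnip, or whether an RNA came from 1 mouse or a pool. With 4 arrays and 4 terms (2 genotypes, their contrast and a mean) no spread between animals remains, so no p is given: every contrast is a description of these 4 libraries, and the standard errors (SE) below carry only the scanner software's error of the spot signals. The number of arrays limits the precision, and in whole muscle fewer cells of a type and less RNA per cell cannot be told apart.

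Txnip encodes an arrestin-like partner of thioredoxin that holds back the uptake of glucose, and muscle without it is known for a shift in fuel use. Leptin is the hormone of fat cells that limits feeding, and ob/ob mice, which lack it, become obese and insulin resistant. Muscle burns fatty acids in mitochondria through a chain of uptake proteins, carnitine carriers and beta-oxidation enzymes, and slow fibres hold more of this machinery than fast fibres do.

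The targeted gene was read first. Its probe lies at chr3:96646629-96646688 in mm8, the build of the array annotation. The Txnip probe gave processed signals of 13210 on the WT array, 867.6 on TBP-2-/-, 13140 on ob/ob and 165.5 on ob/ob TBP-2-/-, so both arrays labelled as lacking Txnip lay far below both others. Signals below follow this order of arrays and are unscaled, while differences and contrasts were taken after scaling. The difference was -4.06 (log2) on the lean background and -6.07 on ob/ob, a contrast of -2.01 (SE 0.289). With WT and ob/ob alike, this contrast compares the signals left on the arrays lacking Txnip. Txnip itself is counted below among the kept lower genes and among those with both differences the same way. Another Txnip probe gave 427.4 on WT and 560.9 on ob/ob. It read 5.781 on TBP-2-/- and 2.218 on ob/ob TBP-2-/-, not well above background there, so it gives no contrast. Lep, the leptin gene, had signals of 36.36, 109.9, 246.5 and 570.3 in the same order of arrays. Its difference without Txnip was 1.47 on lean and 1.45 on ob/ob, a contrast of -0.014 (SE 0.307).

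Over all 14908 genes the contrast had a median of 0.089 and an SD of 0.464, with 1% of genes below -1.27 and 1% above 1.18. At a size of 2-fold or more it was higher for 255 genes (1.71%) and lower for 287 (1.93%), 542 in all (3.64%). Of these, 163 rested on 1 array: that array lay at least 2-fold from each of the other 3 on the same side, and those 3 lay within 2-fold of each other. Setting these aside kept 186 higher genes (1.25%) and 193 lower genes (1.29%), 379 in all (2.54%). A wider rule, which sets a gene aside when the gap to 1 array exceeds the range of the other 3, would remove 166 of these 379 and 23 of the 40 kept genes named by rule; those it removes are pointed out below for the main groups. The split depended on the scaling: spike-in scaling gave 41 higher and 3355 lower, since it moved the median contrast of all genes to -0.713, and scaling to the probes on all arrays gave 203 and 367. List medians below are therefore given relative to the median of all genes.

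**Figure D1:**
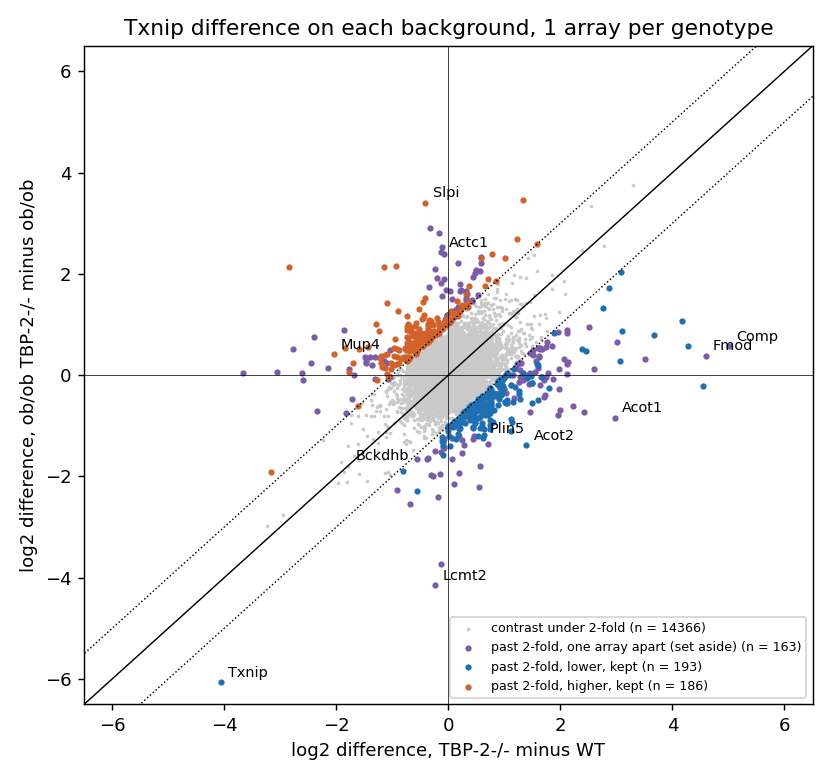
Each point is 1 gene: the log2 difference between TBP-2-/- and WT on the x axis and between ob/ob TBP-2-/- and ob/ob on the y axis, for 14908 genes, with dotted lines at a contrast of 2-fold. The 193 kept lower genes lie below the band, the 186 kept higher genes above it, and the 163 genes that rest on 1 array lie mostly along the axes; Txnip stands alone at the lower left.

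Among the kept genes the contrast took different forms. In 55 genes (0.369% of those tested) the Txnip difference was crossed, at least 1.5-fold in opposite directions on the 2 backgrounds: 30 were up in lean and down in ob/ob, and 25 were the reverse. A difference of 2-fold or more in lean with less than 1.5-fold in ob/ob was seen for 31 lower and 18 higher genes. The same on ob/ob only was seen for 22 lower and 38 higher genes. In 19 genes both differences ran the same way, 9 with a lower and 10 with a higher contrast, and the other 196 met none of these descriptions. These counts leave out the genes set aside, 94 lower and 69 higher. By the rule, each of those differed at least 2-fold on the background of the array that stood apart, and within 2-fold on the other. The rule thus lowers the lean only and ob/ob only counts, which cannot be weighed against the crossed count.

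Of the 28 function lists, fatty acid uptake and oxidation had the most genes past 2-fold, 9 of 38, with 1 of them set aside. The promoters of 3 of its members with a lower contrast are shown first: they had the largest contrasts among its kept members. They are the 250 bases before the start of transcription in RefSeq (GRCm38.p6), written 5′ to 3′ on the gene's strand. Capitals mark AGGTCA, the core hexamer that many nuclear receptors bind, and CCAAT, each on either strand; matches of both can share at most 1 base. The Acot2 window is chr12:83987611-83987860 on the plus strand, that of Plin5 is chr17:56117549-56117798 on the minus strand (the first of 2 starts listed), and that of Fabp3 is chr4:130308488-130308737 on the plus strand.
Acot2: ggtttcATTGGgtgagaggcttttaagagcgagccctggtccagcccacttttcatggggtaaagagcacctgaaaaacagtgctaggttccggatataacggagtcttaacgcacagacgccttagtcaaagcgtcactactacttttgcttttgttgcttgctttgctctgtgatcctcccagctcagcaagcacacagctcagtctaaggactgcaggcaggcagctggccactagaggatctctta
Plin5: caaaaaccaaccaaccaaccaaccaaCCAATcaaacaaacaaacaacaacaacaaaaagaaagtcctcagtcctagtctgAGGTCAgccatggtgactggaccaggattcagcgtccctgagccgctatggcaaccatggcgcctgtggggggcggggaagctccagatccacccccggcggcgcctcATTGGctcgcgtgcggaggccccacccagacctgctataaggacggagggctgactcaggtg
Fabp3: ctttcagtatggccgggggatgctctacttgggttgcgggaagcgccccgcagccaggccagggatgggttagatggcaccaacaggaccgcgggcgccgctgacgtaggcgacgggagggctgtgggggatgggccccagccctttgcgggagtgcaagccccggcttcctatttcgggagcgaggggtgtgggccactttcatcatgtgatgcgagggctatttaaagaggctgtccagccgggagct
The Plin5 window held AGGTCA starting 170 bases before the start and CCAAT letters at 224 and 62 bases, the Acot2 window held CCAAT letters on the other strand at 244 bases, and the Fabp3 window held neither. Of the 29 list members matched to a promoter, 6 held AGGTCA (20.7%), against 10.7% of 10308 genes on all arrays and 13.8% of all 27025 promoters. CCAAT letters were in 14 of the 29 (48.3%), against 35.8% and 34.5%. In the kept genes AGGTCA was in 17 of 136 lower (12.5%) and 14 of 107 higher promoters (13.1%). The longer TCAAGGTCA, which contains AGGTCA, was in none of the 29 and in 0.243% of genes on all arrays. These matches are letters in a window and are no evidence of binding.

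All 38 members of the fatty acid list were on all 4 arrays. Relative to all genes, the median member was 0.33 higher (log2) without Txnip in lean muscle and 0.50 lower without Txnip in ob/ob muscle (-0.50), and the median contrast was -0.64. Of the 38, 8 had a lower contrast and 1 a higher one, beside 1.93% and 1.71% of all genes. The difference was up in lean and down in ob/ob for 23 members, and the reverse for 0, beside 14.6% and 29.9% of all genes. The TBP-2-/- array held the highest level for 25 of the 38 and the ob/ob TBP-2-/- array the lowest for 31, beside 15% and 24.5% of all genes. Taken without subtracting the median of all genes, both Txnip differences of the list median kept their direction under every scaling tried. Spike-in scaling gave 0.50 in lean and -1.02 in ob/ob, but there all genes had medians of 0.17 and -0.52. With that scaling 72% of all genes were up in lean and down in ob/ob, so the direction there is not particular to the list.

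**Figure D2:**
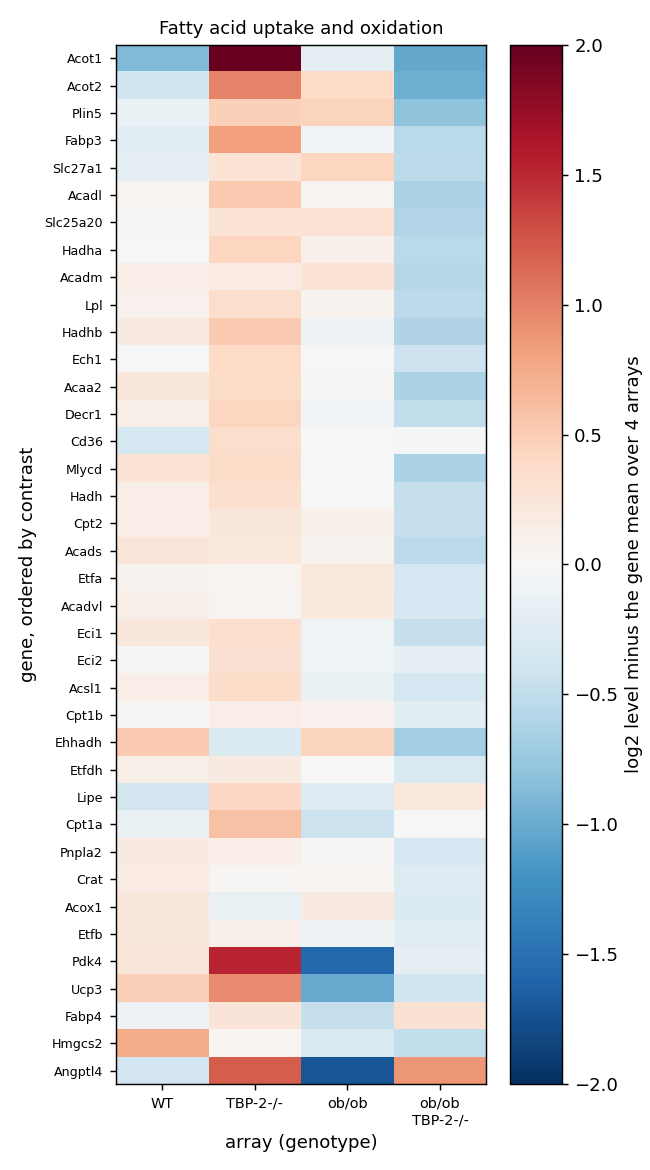
Each row is 1 of the 38 genes of fatty acid uptake and oxidation, ordered by contrast, and each column 1 array; colour gives the log2 scaled level minus the gene's mean over the 4 arrays. Most rows are reddest on TBP-2-/- and bluest on ob/ob TBP-2-/-, and Pdk4, Ucp3 and Angptl4 at the bottom are bluest on ob/ob.

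The thioesterase Acot2, which splits long-chain acyl-CoA in mitochondria, had signals of 130.7 on WT, 375.2 on TBP-2-/-, 251 on ob/ob and 81.43 on ob/ob TBP-2-/-. It was highest without Txnip in lean muscle and lowest without Txnip in ob/ob muscle, a contrast of -2.77 (SE 0.292), or a 6.84-fold ratio of fold changes. Its neighbour and close paralog Acot1, the cytosolic enzyme, had 127.2, 1094, 228.9 and 108.1 and a contrast of -3.82, but it was set aside because TBP-2-/- alone stood apart. A probe for either gene may read both, which was not tested.

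Plin5, which coats lipid droplets and ties them to mitochondria, read 4043, 6772, 6675 and 2379 in the same order. It was 0.61 (log2) higher in lean and 1.25 lower in ob/ob without Txnip (-1.25), a contrast of -1.86 (SE 0.289). Fabp3, the fatty acid carrier of heart and slow muscle, read 74170, 167400, 92550 and 55470. Its contrast of -1.54 came mainly from the lean side, where the difference was 1.04, while that in ob/ob was -0.50. The other members past 2-fold were the fatty acid transporter Slc27a1 (-1.42), the long-chain dehydrogenase Acadl (-1.16), the carnitine carrier Slc25a20 (-1.12) and Hadha (-1.06), the trifunctional protein's alpha subunit. Each of these last 4 was above its WT level without Txnip in lean muscle and below its ob/ob level without Txnip in ob/ob muscle. Under the wider rule 4 of the 8 kept members were set aside: Plin5, Acadl and Slc25a20 rested on the ob/ob TBP-2-/- array and Fabp3 on the TBP-2-/- array.

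Of the 38 members, 33 had a contrast below the median of all genes, most of them under 2-fold. The contrast was -0.87 for the medium-chain dehydrogenase Acadm, -0.85 for the lipase Lpl, -0.84 for Hadhb and -0.42 for Cpt1b, the muscle enzyme that commits fatty acids to mitochondria. A few members behaved otherwise: Pdk4, the kinase that shuts off pyruvate oxidation, was 1.28 higher in lean and 1.40 higher in ob/ob, and the uncoupling protein Ucp3 was 0.48 and 0.61 higher. Angptl4, a secreted inhibitor of Lpl, read 975.8, 3209, 427.5 and 2180. It was higher without Txnip on both backgrounds and more so in ob/ob, with a contrast of 1.0 (SE 0.289), the only member past 2-fold on the higher side. That call was lost, with 0 higher members in the list, under quantile normalization, normexp, spike-in scaling and scaling to the probes on all arrays.

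Other oxidative enzymes and regulators split. Of 24 tricarboxylic acid cycle genes 1 had a lower contrast (1.93% of all genes did) and 0 a higher one (1.71%): the mitochondrial Idh2 read 5191, 5933, 6957 and 2488, a contrast of -1.30 from the ob/ob side only. Of 25 genes of glucose uptake and glycolysis 1 was lower, Ldhb, the lactate dehydrogenase subunit of oxidative muscle, at 48700, 53240, 60710 and 23890 (-1.10). Among 29 nuclear receptors and mitochondrial regulators 4 were lower and 0 higher, beside 1.93% and 1.71% of all genes, and after normexp background correction 1 was lower. Nr4a2 was crossed, with 378.5, 647.6, 248.6 and 92.89 (-1.82, SE 0.291). Esrrb, an estrogen-related receptor, read 126.3, 151.7, 176.8 and 62.54 (-1.39). Ppara, the fatty acid sensing receptor, read 398.6, 232, 438.1 and 77.39 (-1.35) and was set aside because the ob/ob TBP-2-/- array stood apart. The Esrrg probe gave -1.03 but another probe for the gene gave 0.15. After normexp the contrast was -0.75 for Esrrb, -0.88 for Ppara and -0.92 for Esrrg. The coactivator Ppargc1a had a contrast of 0.17. Under the wider rule Idh2, Ldhb and Esrrb rested on the ob/ob TBP-2-/- array.

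The slow fibre sarcomere list followed on the ob/ob side only. Its 16 measured genes had a median of 0.0033 in lean and -0.58 in ob/ob relative to all genes, a contrast of -0.69. The ob/ob TBP-2-/- array held the lowest level for 14 of the 16, beside 24.5% of all genes. Past 2-fold, 2 of the 16 had a lower contrast and 1 a higher one, beside 1.93% and 1.71% of all genes. The calcineurin-binding Z-disc protein Myoz2 read 15560, 20400, 19450 and 9256 (-1.09), and another probe for it gave -1.26. The Z-disc crosslinker Actn2 read 25320, 37870, 29370 and 16360 (-1.05). Myh7, the slow myosin heavy chain, had 316800, 308300, 213900 and 121900 and a contrast of -0.40. Sarcolipin (Sln), which inhibits the calcium pump, went the other way: it read 6815, 2776, 4687 and 5821, lowest on TBP-2-/-, with a contrast of 1.98 (SE 0.289). Of the 3 kept slow fibre genes, the wider rule set aside Myoz2, on ob/ob TBP-2-/-, and Sln, on TBP-2-/-. The summed scaled signal of the slow list was 4027, 3690, 2929 and 2288 across the arrays. The part of fibre composition or of the muscle sampled in these contrasts was not tested.

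Several lists of abundant transcripts lay on the higher side. The median contrast relative to all genes was 0.44 for glucose uptake and glycolysis, 0.36 for 48 cytosolic ribosomal proteins, 0.29 for 17 fast fibre sarcomere genes, 0.17 for 53 oxidative phosphorylation subunits and 0.16 for 31 proteasome subunits. The WT array held the highest level for all 53 oxidative phosphorylation genes, beside 35.3% of all genes. Their median Txnip difference relative to all genes was -0.23 in lean and -0.075 in ob/ob. Before subtracting the median of all genes, 19 of the 53 were down in lean and up in ob/ob, beside 29.9% of all genes. Of the 48 ribosomal genes 44 were down in lean and up in ob/ob, beside 29.9% of all genes. The ob/ob array held the lowest level for 45 of them, beside 26.1% of all genes. Their median lean difference, not relative to all genes, was -0.15, but 0.029 under quantile normalization. The contrast also moved with signal level over all genes: the brightest of 10 equal groups of genes had a median of 0.20 relative to all genes, and 42 of the 48 ribosomal, all 17 fast fibre and 50 of the 53 oxidative phosphorylation genes lay in it. Under quantile normalization the median contrasts of these lists, in the order first given, became 0.21, 0.16, 0.025, -0.056 and 0.043, so oxidative phosphorylation changed side. No spot was flagged as saturated, and the brightest non-control spot read 569591 to 602567 across the arrays, against a scanner limit of 656436 to 657706. These lists held few genes past 2-fold, beside 3.64% of all genes: Rpl13 in the ribosomal list (1.0, with other probes at 0.22), Ldhb in the glycolytic list, and 0 in the other 3. The wider rule set Rpl13 aside on ob/ob. Other lists with many genes in that brightest group had medians on the lower side: slow fibre sarcomere (13 of 16 genes), the tricarboxylic acid cycle (19 of 24, median -0.13) and fatty acid uptake and oxidation (22 of 38). The part of signal level in any list's median was not tested.

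**Figure D3:**
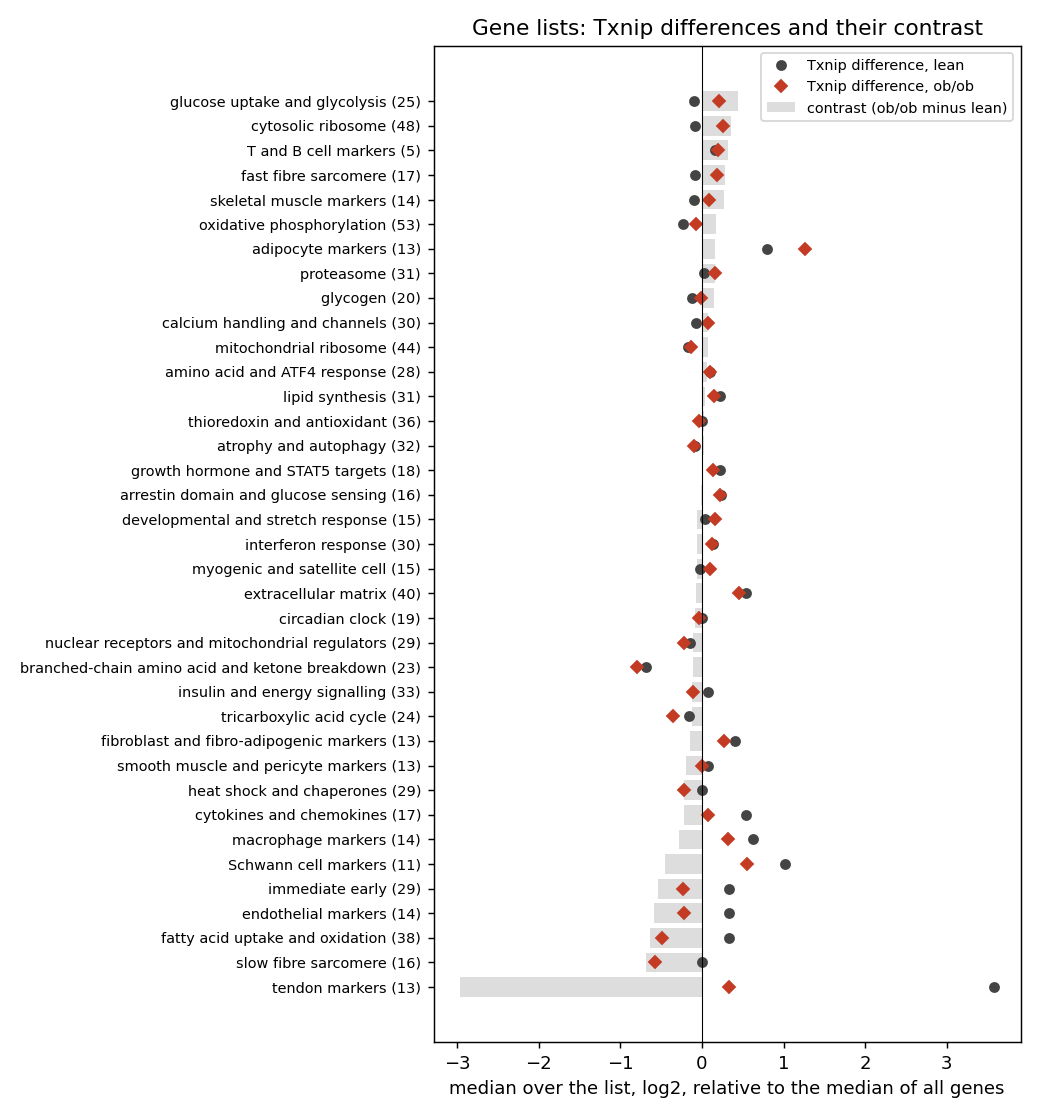
For each gene list with at least 5 measured genes (number in brackets), the grey bar is the median contrast, the dark circle the median Txnip difference in lean muscle and the red diamond that in ob/ob muscle, all log2 and relative to the median of all genes. The circle and diamond lie far apart for tendon markers, slow fibre sarcomere, fatty acid uptake and oxidation, immediate early genes and endothelial markers, and lie close together at -0.68 and -0.80 for branched-chain amino acid and ketone breakdown.

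Breakdown of branched-chain amino acids and ketones had a Txnip difference of like size on both backgrounds. Its 23 measured genes had a median of -0.68 in lean and -0.80 in ob/ob relative to all genes. The aminotransferase Bcat2, which takes the first step, read 465.4, 139.6, 516.4 and 115.4, a contrast of -0.053. Bckdhb, a subunit of the branched-chain keto acid dehydrogenase, read 1808, 572.9, 2029 and 496.3, a contrast of -0.0014. Both arrays without Txnip were low and both with it were high in each case. The contrast was 0.099 for Dbt, another subunit, and -0.091 for Ivd, the isovaleryl-CoA dehydrogenase. Oxct1, the enzyme that lets muscle burn ketones, had differences of -1.81 in lean and -2.11 in ob/ob. The only member past 2-fold was the mitochondrial carrier Slc25a44, at 140.9, 136.3, 156.7 and 24.92, which was set aside because only the ob/ob TBP-2-/- array was low. Interferon response genes had 0 of 30 past 2-fold, beside 3.64% of all genes, and median Txnip differences of 0.14 in lean and 0.13 in ob/ob. Adipocyte markers had 0 of 13 past 2-fold and medians of 0.79 and 1.26, both on the higher side without Txnip. In lists of these sizes a count of 0 is near the share over all genes.

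**Figure D4:**
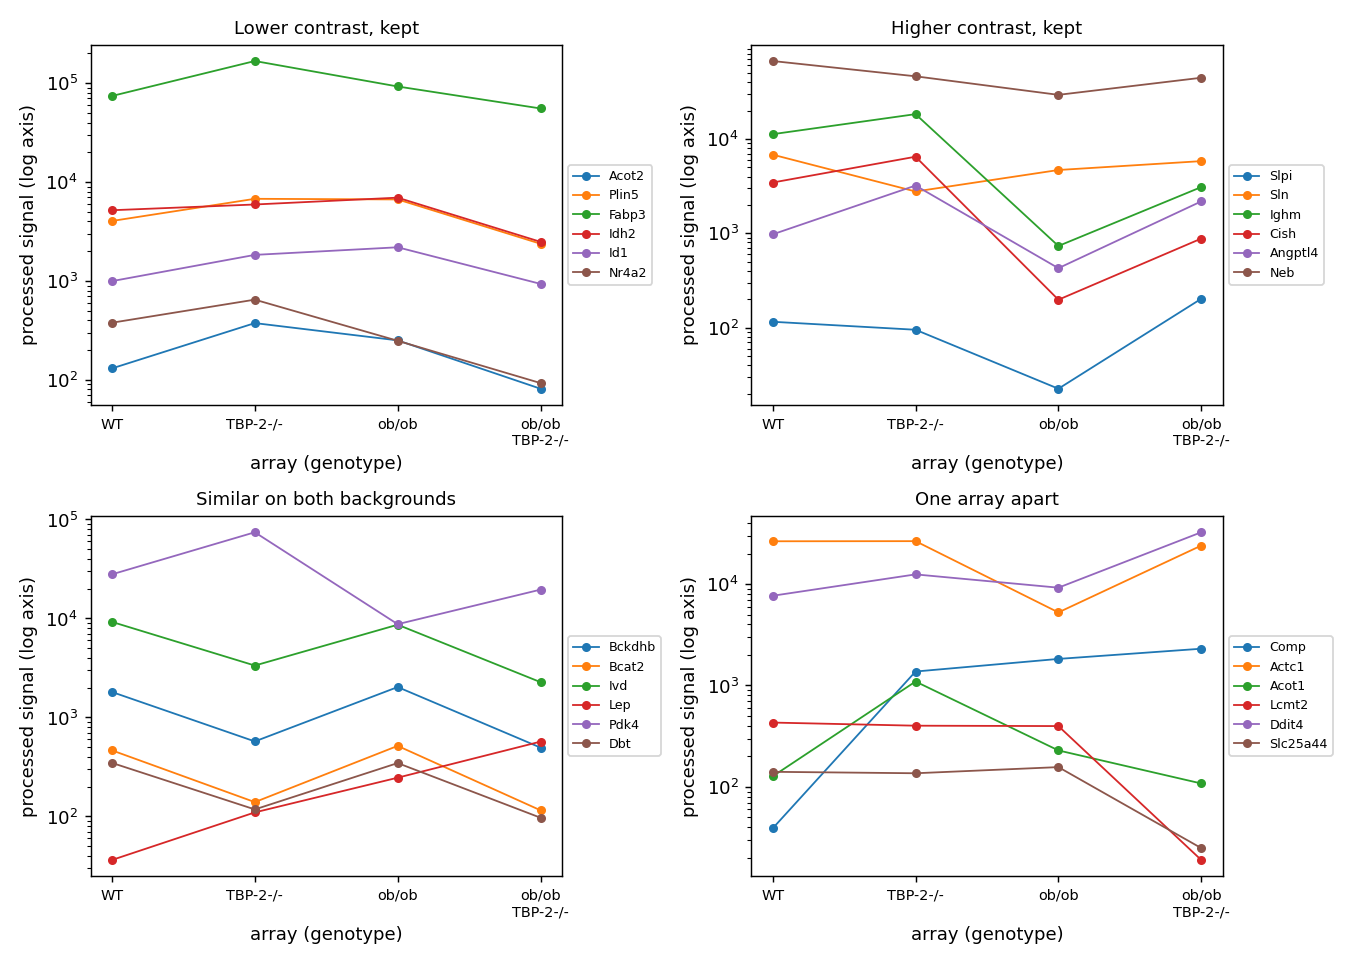
Processed signals on a log axis for 24 genes across the 4 arrays, 1 point per array, grouped as kept genes with a lower contrast, kept genes with a higher contrast, genes with a contrast under 2-fold and genes where 1 array stands apart. Acot2 and Plin5 reach their lowest point on ob/ob TBP-2-/-, Bckdhb and Bcat2 are low on both arrays without Txnip, and Comp is low on WT only.

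Signalling and stress genes were mixed. Immediate early genes had a median contrast of -0.54, with 5 of 29 lower and 0 higher, beside 1.93% and 1.71% of all genes; Ccn2 and Atf3 among the 5 were set aside. Klf4 read 4525, 9249, 8353 and 5096 (-1.37) and Ccn1 503, 1037, 908.5 and 690.8 (-1.07), both higher without Txnip in lean. In ob/ob the Klf4 difference was -0.47, while Ccn1 was only slightly lower after scaling, so its contrast came mainly from the lean side. Egr1, in contrast, was lower without Txnip on both backgrounds, with differences of -1.73 and -0.95. Of 36 thioredoxin and antioxidant genes 2 were higher and 1 lower, 3 in all beside 3.64% of all genes, and 1 of the 3, Mt1, was set aside. The metallothionein Mt2 read 1898, 4848, 2895 and 15840 (1.47), higher without Txnip in both and more so in ob/ob, and the wider rule set it aside on ob/ob TBP-2-/-. Catalase (Cat), a peroxisomal enzyme, read 1806, 3348, 2358 and 1374 (-1.30), up in lean and down in ob/ob. Of 16 arrestin domain and glucose sensing genes 1 was higher (1.71% of all genes), Ddit4, an inhibitor of mTORC1, at 7668, 12460, 9209 and 32410 (1.49), and it was set aside because the ob/ob TBP-2-/- array stood apart.

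Among growth hormone and STAT5 targets 2 of 18 were higher and 2 lower, beside 1.71% and 1.93% of all genes. Cish, a feedback inhibitor of cytokine receptors, read 3453, 6482, 198.1 and 880, higher without Txnip in both and by 2.39 in ob/ob against 0.78 in lean. Mup4, a major urinary protein whose probe may read its many close paralogs, read 567.8, 150.3, 32.02 and 36.04 (2.46). Both ob/ob arrays were low for Mup4, so its contrast came from the lean pair. Bcl6, a transcriptional repressor, read 11780, 11950, 20560 and 7489 (-1.11), highest on ob/ob and lowest on ob/ob TBP-2-/-, and the wider rule set it aside on ob/ob. Socs1 had 121.5, 433.1, 152.8 and 121.6 and was set aside because TBP-2-/- stood apart.

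The kept genes with the highest contrasts that also passed under quantile normalization and normexp were led by dim probes. Slpi, a secreted protease inhibitor, read 115.7, 95.23, 22.6 and 202.7 (3.82, SE 0.326), low on ob/ob and highest on ob/ob TBP-2-/-. The co-receptor Kl read 44.27, 21.84, 12.28 and 45.94 (3.29, SE 0.418). Ebf4 (3.09), Wfdc21 (2.54), Trim12c (2.38), Htra4 (2.30) and Katnal2 (2.12) followed, with signals between 17.43 and 986.3. Normexp lowered these contrasts to 2.20 for Slpi, 1.22 for Kl, 1.49 for Ebf4, 1.39 for Wfdc21, 1.27 for Trim12c, 1.75 for Htra4 and 1.18 for Katnal2. The wider rule set aside Slpi and Katnal2 on ob/ob and Trim12c on WT. Among brighter probes, Ighm, the immunoglobulin M heavy chain, read 11230, 18310, 734.7 and 3090 (1.74), and another probe for it gave 1.18. Neb, the giant thin filament protein, read 66900, 46090, 29310 and 44470 (1.51), but its 4 other probes had a median of 0.46. T and B cell markers had 5 of 14 genes on all arrays. Cd79b, part of the B cell receptor, went the other way from Ighm, at 25.07, 56.09, 36.12 and 20.87 (-1.58, and -0.48 after normexp). The wider rule set Cd79b aside on TBP-2-/-. Cd4 and Cd3e had signals between 32.91 and 68.37. The part of B cells or plasma cells in the Ighm value was not tested.

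On the lower side, the largest contrasts belonged to tendon markers, and they rested on the WT array. Of 13 measured tendon genes 9 had a lower contrast and 0 a higher one, beside 1.93% and 1.71% of all genes. The list median was -2.96, and -1.77 after normexp. In 10 of the 13 the WT array lay at least 2-fold below each of the other 3, beside 0.657% of all genes. The cartilage matrix protein Comp read 39.03 on WT and 1373, 1828 and 2304 on the others, and fibromodulin (Fmod) read 147, 3877, 4879 and 5374. Comp, Fmod, Chad and Prg4 were set aside. Angptl7 (18.67, 474.9, 1018 and 746; contrast -4.74), Cilp2 (-3.72), Kera (-3.09), tenomodulin (Tnmd, -2.87) and Col11a1 (-2.24) were kept because their other 3 arrays spanned over 2-fold, and their WT signals, between 18.67 and 62.42, were the lowest of the 4. The wider rule set all 5 aside on WT. Col22a1, a collagen of the muscle-tendon junction that is outside the list, read 259.6, 2389, 4465 and 4572 (-2.80), and another probe gave -2.84; the wider rule set it aside on WT too. The summed scaled signal of tendon markers was 32.6 on WT against 81.0, 113.5 and 146.8. Tissue sampled with the muscle and genotype cannot be told apart here with 1 array per genotype.

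Vascular and nerve markers also had median contrasts on the lower side, with smaller sizes, but by different patterns over the arrays. Of 14 endothelial markers 10 were up in lean and down in ob/ob without Txnip, beside 14.6% of all genes, and the list median was -0.59. Sox18, an endothelial transcription factor, was the only one past 2-fold, at 235.3, 391.6, 609.7 and 267.1 (-1.55, SE 0.289), and the wider rule set it aside on ob/ob. Pecam1 had -0.61 and Cdh5 -0.26, and the summed scaled signal was 59.8, 64.8, 67.8 and 63.2. Id1 and Id3, inhibitors of helix-loop-helix factors that were chosen after their values were seen, were crossed like Sox18: Id1 read 996.5, 1836, 2191 and 934.9 (-1.74; another probe -1.94) and Id3 690.3, 1139, 1366 and 575.7 (-1.60). Schwann cell markers had 0 of 11 past 2-fold and a median of -0.45, or -0.21 after normexp. They were higher without Txnip on both backgrounds, with medians relative to all genes of 1.02 in lean and 0.55 in ob/ob. The WT array held the lowest level for 9 of the 11, beside 23.6% of all genes. Macrophage markers had 0 of 14 past 2-fold and a median of -0.29. For both lists the count past 2-fold stands beside 3.64% of all genes and is near that share in lists so short. The part of these cell types in the contrasts of the other lists was not tested.

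Skeletal muscle itself was the main tissue on every array: the 14 skeletal muscle markers were all in the brightest of the 10 groups by level, with summed scaled signals of 12150, 10720, 10770 and 11440.

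The genes set aside were unevenly spread. The WT array was the low one for 42 and the high one for 20, TBP-2-/- was low for 6 and high for 22, ob/ob was low for 15 and high for 16, and ob/ob TBP-2-/- was low for 14 and high for 28. The heart actin Actc1, also made in immature muscle, read 26420, 26490, 5255 and 23960, low on ob/ob only. Lcmt2 read 430.9, 401.4, 397.9 and 19.03 and Pard6a 370.7, 369.3, 350.7 and 22.31, low on ob/ob TBP-2-/- only. Ankrd1, a stretch-responsive muscle protein, read 162.6, 1442, 871.5 and 1153, and the matrix signalling protein Ccn2 read 1569, 7151, 11040 and 11590, both low on WT only. Clip2 stood apart on TBP-2-/- and Cd28 on ob/ob. Other set-aside list members were Rcan1 (TBP-2-/-), Thbs2 and Fbln1 (WT), and Fasn, Atf3 and Mt1 (ob/ob TBP-2-/-).

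**Figure D5:**
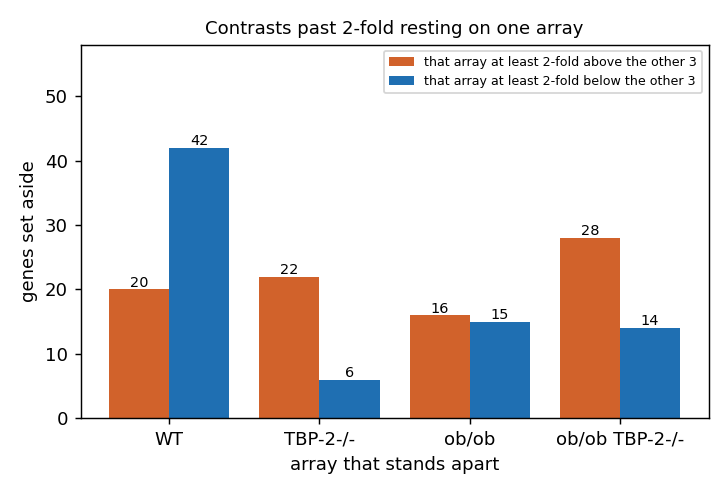
Bars count the genes past a 2-fold contrast that rest on 1 array, by the array that stands apart (x axis) and by whether it lies above (orange) or below (blue) the other 3. The WT array has the most, 42 of them below the others.

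Genes off on exactly 1 array, and on the other 3, had no contrast and were not in these counts. They numbered 408 for WT, 34 for TBP-2-/-, 105 for ob/ob and 90 for ob/ob TBP-2-/-. With clone and predicted names left out, the brightest of them was Tsen34, which helps splice tRNA, at 2662, 3234, 3045 and 3.909. Ecrg4 (11.03, 312.7, 257.2 and 505.6) and Col8a2 (10.46, 193.6, 298.9 and 327.3) were off on WT only. Chrna9 and Fndc7 were off on TBP-2-/-, Tinag and Fam25c on ob/ob, and C2cd4b on ob/ob TBP-2-/-.

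Other probes, level and position gave further measures of the contrast. Of 64 kept genes with another probe on all arrays, 54 had the same sign there, 84.4% against 65.1% of 5008 genes in all. Those 5008 were not chosen by the size of their contrast, so these shares are not like for like. The other probe reached at least 50% of the size for 37 of the 64 (57.8%): 27 of 39 kept lower genes (69.2%) and 10 of 25 kept higher genes (40%). Of 20 set-aside genes with another probe, 18 had the same sign (90%) and 14 reached 50% of the size (70%). Agreement between probes therefore does not set the kept genes apart from those set aside. With genes split into 4 equal groups by mean level, 8.24% of the dimmest group were past 2-fold, against 3.41%, 1.37% and 1.53% in the following groups. Within 10 Mb of Txnip on chromosome 3 there were 270 genes, of which 0 were higher and 4 lower, beside 1.71% and 1.93% of all genes. Of the 270, 1 was kept (0.37%), beside 2.54% kept of all genes and 2.82% of chromosome 3. Within 10 Mb of Lep on chromosome 6 there were 84 genes. Of these 5 were higher and 2 lower, again beside 1.71% and 1.93% of all genes. After setting aside, 3 of the 84 were kept (3.57%), beside 2.54% of all genes and 2.89% of chromosome 6.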

How the data were processed

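Each array's scanner file holds intensities that the authors deposited as Agilent Feature Extraction output (version 9.5.3.1, per the submitters' processing notes): a processed signal per spot, background-subtracted per the file headers. The series table deposited by the authors for the same arrays holds log2 values with every probe centred on its median over arrays; how they were scaled is not stated there. Its columns had medians of 0.091, -0.062, -0.012 and 0.0091, and its array differences departed from those of the scanner files by a median of 0.0020, which leaves direction and log base settled and the zero point of each probe unknown.

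The 4 arrays share 1 slide and 1 scan, per the file headers, so neither separates the genotypes. Control spots and outlier-flagged spots were left out, and spots of 1 probe were averaged. Signals were divided by the 75th percentile of non-control probes (272.7 to 320.7) and put on the log2 scale. Probes were named by accession through RefSeq (24375 probes), by symbol (6301) or synonym (2426), and 8072 kept the file's name. Where a gene had several probes, the one of highest mean level stood for it. Arrays had 22678 to 24223 probes above background and 0 saturated spots; repeated spots of 1 probe varied by a median SD of 0.059 to 0.069. Scripts used Python 3.11.15, pandas 2.3.3 and, for normexp, limma 3.58.1, and the contrast was tested on simulated data.

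The named genes were Txnip, Lep, the 10 kept genes with the largest contrast each way that also passed 2-fold under quantile normalization and normexp (clone and predicted names left out), up to 4 members of each of 39 lists, 2 set-aside genes per array, and up to 2 genes off on each array. Other genes illustrate a list or were chosen after their values were seen. Members and lists were chosen with earlier results of these data known. Alternatives varied scaling, background, probe choice, filters and thresholds.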

Additional observations from a re-analysis of the deposited data

Results flagged for a closer look

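In 9 genes named by rule the Txnip difference ran one way in the lean pair and the opposite way in the ob/ob pair, each by at least 1.5-fold; with 1 array per genotype this difference was not tested. The contrast was 3.29 for Kl, 3.09 for Ebf4, 2.54 for Wfdc21, 2.30 for Htra4 and 1.51 for Neb, all lower without Txnip in lean muscle and higher in ob/ob muscle. It was -2.77 for Acot2, -1.86 for Plin5, -1.82 for Nr4a2 and -1.55 for Sox18, all higher without Txnip in lean muscle and lower in ob/ob muscle. Kl, Ebf4 and Wfdc21 had signals under 100 on all 4 arrays. The 4 other probes for Neb had a median contrast of 0.46, under 2-fold. The wider rule set aside Plin5 on ob/ob TBP-2-/- and Sox18 on ob/ob.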

How the results depend on the processing

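No paired analysis was possible because each genotype had 1 array, and no array could be left out because the contrast needs all 4. The main counts were 255 higher and 287 lower genes, 186 and 193 of them kept. Normexp background correction gave 75 and 80, with 50 and 58 kept and a tendon median of -1.77; 153 of the 542 genes stayed past 2-fold and 537 kept their sign. Spike-in scaling gave 41 and 3355, with 19 and 2981 kept. Taking genes on at least 2 arrays gave 417 and 518, with 302 and 344 kept. A signal of at least 100 gave 69 and 88, with 51 and 63 kept, a tendon median of -0.73 and a T and B cell median of 1.63; granulocyte markers then gave no value. Setting genes aside by a gap larger than the range of the other arrays kept 109 and 104, and a 3-fold threshold gave 64 and 78, with 30 and 34 kept. Quantile normalization left 514 of the 542 past 2-fold, while 541 stayed so with the deposited values and 504 with the median of a gene's probes. The cause of these shifts was not tested, beyond the median shift of spike-in scaling and the fewer or more genes of the filters. The median contrast of the fatty acid list, relative to all genes, stayed between -0.81 and -0.63 and that of the slow fibre list between -0.87 and -0.60 under these settings. Spike-in scaling and scaling to the probes on all arrays move every gene's contrast by the same amount. They therefore cannot change these relative medians and say nothing about their stability. Of the named contrasts only that of Lep changed sign, from -0.014 to 0.063 under quantile normalization and 0.58 under normexp. Signal near background limits the dimmest genes most.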

Other observations

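The largest contrast of all was that of BC006965, a clone-named transcript chosen after its values were seen. Its probe read 121.9 on WT, 18.57 on TBP-2-/-, 281.2 on ob/ob and 1051 on ob/ob TBP-2-/-, a contrast of 4.99 (SE 0.335). Mss51, a muscle mitochondrial protein, read 180.3, 1081, 14210 and 16790 (-1.97): both ob/ob arrays were far above both lean arrays, and the Txnip difference was 2.45 in lean and 0.48 in ob/ob. Adamts8, a secreted protease, read 199.5, 614.1, 310.4 and 180.3 (-2.03), and another probe gave -2.09; TBP-2-/- stood apart under the wider rule. Nedd9 and Gata2, also chosen after their values were seen, were up in lean and down in ob/ob without Txnip, with contrasts of -1.70 and -1.31 and other probes at -1.92 and -1.27. Tbc1d1, a regulator of glucose transporter traffic, read 176.3, 246.2, 576.8 and 283 (-1.14, and another probe -1.06), and the wider rule set it aside on ob/ob. Hspb7, a small heat shock protein of muscle, read 6129, 7184, 8156 and 3622 (-1.03, and another probe -1.08), and the wider rule set it aside on ob/ob TBP-2-/-. Camk2a read 13330, 10570, 9761 and 13190 (1.14), down in lean and up in ob/ob, and another probe gave 0.80.

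Relative to the median of all genes, the contrasts of the other lists had medians between -0.26 and 0.14: glycogen (0.14), calcium handling (0.073), mitochondrial ribosome (0.069), amino acid and ATF4 response (0.064), lipid synthesis (0.041), atrophy and autophagy (0.021), developmental and stretch response (-0.058), myogenic and satellite cell (-0.065), extracellular matrix (-0.075), circadian clock (-0.082), insulin and energy signalling (-0.12), erythroid markers (-0.13), fibroblast markers (-0.15), smooth muscle markers (-0.19), heat shock (-0.22), cytokines (-0.22) and granulocyte markers (-0.26, from 2 measured genes). Beside 3.64% of all genes, genes past 2-fold were 3 of 15 for developmental and stretch response, 2 of 30 for calcium handling, 2 of 33 for insulin and energy signalling, and 1 each for lipid synthesis (of 31), amino acid and ATF4 response (of 28), heat shock (of 29), extracellular matrix (of 40) and fibroblast markers (of 13). They were 0 of 20 for glycogen, 0 of 19 for the circadian clock, 0 of 32 for atrophy and autophagy, 0 of 15 for myogenic genes, 0 of 44 for the mitochondrial ribosome, 0 of 17 for cytokines, 0 of 13 for smooth muscle, 0 of 3 for erythroid and 0 of 2 for granulocyte markers. Extracellular matrix genes were higher without Txnip on both backgrounds, with list medians of 0.54 in lean and 0.45 in ob/ob muscle.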
